A study of Arabidopsis thaliana with 15 samples.

Results

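The SAUR (small auxin up RNA) genes described here are 60 Arabidopsis genes, chosen by their gene identifiers as members of this plant gene family, out of 32678 genes in the table. The reference annotation describes 80 genes as SAUR-like, of which 78 were in the table, and all 60 members are among them. The members were chosen with earlier results of these data known, and the other SAUR-like genes are not described. RNA was sequenced from whole seedlings of wild-type Arabidopsis thaliana, ecotype Col, aged 10 days. All seedlings had been moved from agar plates to liquid 0.5× MS medium for 2 h before sampling or treatment began. There were 5 groups of 3 libraries, namely 5 µM GR244DO for 2 h, 5 µM GR244DO for 4 h, and solvent at 0 h, 2 h and 4 h. GR244DO is a synthetic strigolactone, a stereoisomer of GR24 with the configuration of the natural hormone 4-deoxyorobanchol. The comparisons ask how SAUR transcripts differ between seedlings given the hormone analog and seedlings given solvent, and how they move with time in solvent alone.

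SAUR genes encode small, short-lived proteins, and many of them are switched on within minutes of auxin treatment. Proteins of the SAUR19 type bind and inhibit PP2C.D phosphatases at the plasma membrane. These phosphatases remove an activating phosphate from the plasma membrane proton pumps (AHA), so that active SAUR proteins keep the pumps on, the wall is acidified and the cell expands. Many family members lie side by side in tandem arrays of near-identical copies. Strigolactones, for their part, are carotenoid-derived hormones known above all for holding back shoot branching, and act through the receptor D14 and the F-box protein MAX2.

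Of the 60 members, 29 lay in 5 tandem clusters set beforehand, and 31 lay outside these. Members outside are not all single genes. SAUR7, SAUR6 and SAUR12, for example, lie close together on chromosome 2 (chr2:9083906-9090052). Differences between clusters and members outside are therefore not differences between tandem and single genes. The chromosome 1 cluster (chr1:10301377-10323239, TAIR10.1) holds 8 genes, SAUR61 (AT1G29420) to SAUR65 (AT1G29460), SAUR66 (AT1G29500), and AT1G29490 and AT1G29510, both of which the reference calls SAUR68. Members of this group, often named after SAUR63, promote elongation of hypocotyls and stamen filaments. The chromosome 3 cluster (chr3:976715-983768) holds the 4 genes SAUR26 (AT3G03850) to SAUR29 (AT3G03820), known for natural variation in growth at warm temperature. The chromosome 5 cluster (chr5:5962773-5984308) holds the 6 genes SAUR19 (AT5G18010) to SAUR24 (AT5G18080), the best studied growth-promoting group. A first chromosome 4 cluster (chr4:16577180-16599568) holds 7 genes, SAUR1 (AT4G34770) to SAUR5 (AT4G34810), SAUR49 (AT4G34750) and SAUR50 (AT4G34760). A second one (chr4:18121526-18131284) holds 4, SAUR13 (AT4G38825) to SAUR16 (AT4G38860), among them SAUR15 (AT4G38850), the founding Arabidopsis member, also known as SAUR-AC1. Coding sequences were 88.6% to 95.9% identical between pairs in the chromosome 5 cluster, 81.8% to 92.6% in the chromosome 1 cluster and 81.0% to 87.2% in the chromosome 3 cluster. In the chromosome 4 clusters the range was lower, 57.4% to 76.2% in the first and 60.8% to 70.8% in the second.

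Near-identity bears on the counts, because the sources used here do not give how reads that fit several places were handled. Up to 33.9% of the 50-base windows of a member occurred elsewhere in the genome, the highest share being that of AT1G29510, followed by 27.1% for SAUR63, 23.2% for SAUR62 and 18.5% for SAUR19. For SAUR64, SAUR65 and all members of the chromosome 3 and chromosome 4 clusters the share was 0. Levels of genes with shared windows are therefore less certain than those of the rest. Overlap with another annotated gene was found for 7 members, including SAUR6 (AT2G21210) and SAUR7 (AT2G21200), which share 176 bases on the same strand, and SAUR63, which lies within AT1G29435 on the opposite strand. The strand setting of the counting is not given either, so reads of such pairs cannot be told apart.

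The stretches of 250 bases upstream of the annotated gene start are shown for 4 members on which the results below turn. They were read from the TAIR10.1 genome with its RefSeq annotation and are written 5′ to 3′ on the gene's strand. SAUR65 (chr1:10308247-10308496, minus strand) kept its lower level at 2 h in every alternative, SAUR26 (chr3:982807-983056, plus strand) was also lower at 2 h, and SAUR5 (chr4:16598708-16598957, plus strand) and SAUR76 (chr5:7047447-7047696, minus strand) were lower at 4 h. Capitals mark matches to any of 5 short elements that were searched.
SAUR65: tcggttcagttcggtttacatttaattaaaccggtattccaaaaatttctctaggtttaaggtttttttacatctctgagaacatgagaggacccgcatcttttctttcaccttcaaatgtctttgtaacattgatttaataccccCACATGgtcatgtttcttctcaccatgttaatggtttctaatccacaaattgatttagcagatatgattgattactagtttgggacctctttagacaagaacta
SAUR26: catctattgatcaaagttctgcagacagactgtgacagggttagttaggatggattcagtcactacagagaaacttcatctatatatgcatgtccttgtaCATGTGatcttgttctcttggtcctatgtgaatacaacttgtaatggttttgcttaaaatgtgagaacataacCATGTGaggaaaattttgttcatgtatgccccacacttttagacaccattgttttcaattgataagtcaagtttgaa
SAUR5: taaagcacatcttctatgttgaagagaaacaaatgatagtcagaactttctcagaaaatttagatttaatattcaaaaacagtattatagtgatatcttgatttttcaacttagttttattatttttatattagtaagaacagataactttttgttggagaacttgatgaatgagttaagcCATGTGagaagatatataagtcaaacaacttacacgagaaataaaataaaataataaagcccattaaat
SAUR76: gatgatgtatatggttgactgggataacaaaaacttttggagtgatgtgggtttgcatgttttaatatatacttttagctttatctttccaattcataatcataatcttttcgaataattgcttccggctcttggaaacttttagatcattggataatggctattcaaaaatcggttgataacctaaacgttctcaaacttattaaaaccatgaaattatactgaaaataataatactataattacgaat

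The elements were TGTCTC and TGTCGG, letters bound by auxin response factors (ARF), CACGTG and CACATG, letters bound by PIF and related bHLH factors, and TATAAA, the core of a TATA box. The first 4 were searched on both strands and TATAAA on the gene's strand, each element on its own, with overlaps allowed. CACATG stood in 26 of 60 SAUR promoters (43.3%), against 11.1% of 27443 promoters of the same length. It was in 22 of 29 promoters of the tandem clusters (75.9%) and in 4 of 31 promoters of members outside them (12.9%). All 8 promoters of the chromosome 1 cluster and all 4 of the chromosome 3 cluster held it, as did 3 of 6 in the chromosome 5 cluster, 4 of 7 in the first chromosome 4 cluster and 3 of 4 in the second. Tandem copies descend from each other, so these promoters are not independent, and no test was made.

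Over all members together, the other elements were less frequent or close to their share over all promoters. TGTCTC was in 7 members (11.7%, against 10.9% of all promoters), TGTCGG in 2 (3.33%, against 4.16%) and CACGTG in 1 (1.67%, against 6.49%). TATAAA was in 23 (38.3%, against 32.9%). By cluster, TGTCTC was in 3 of 8 promoters on chromosome 1, 2 of 6 on chromosome 5 and 0 of 4 on chromosome 3. It was in 0 of 7 and 1 of 4 in the first and second chromosome 4 clusters, and in 1 of 31 outside. TATAAA was in 5 of 8, 0 of 6 and 0 of 4 in the chromosome 1, 5 and 3 clusters. It was in 4 of 7 and 1 of 4 in the chromosome 4 clusters, and in 13 of 31 outside. These shares rest on few promoters that are not independent, and no test was made. In SAUR1, SAUR3 and SAUR5 of the first chromosome 4 cluster, CACATG began 71, 70 and 69 bases before the gene start. In the chromosome 1 cluster its position ranged from 10 to 243 bases before the start. SAUR76 held none of the 5 elements in this window.

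**Figure D1:**
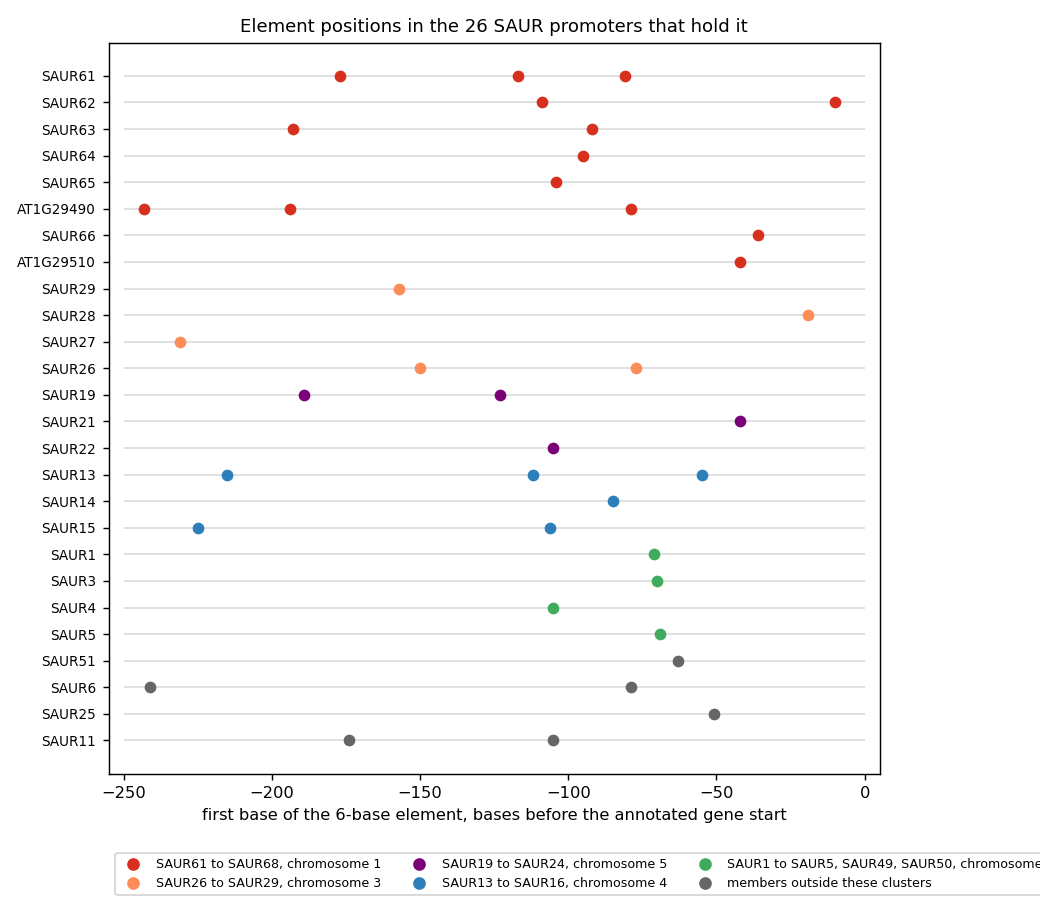
Positions of the CACATG element (either strand) in the 26 SAUR promoters that hold it, in bases before the annotated gene start on the x axis, with 1 row per gene coloured by cluster. All 8 genes of the chromosome 1 cluster and all 4 of the chromosome 3 cluster appear, but only 4 of the 31 genes outside the clusters.

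Levels are given as RPKM, the authors' read counts scaled by gene length and by library depth, so that genes of different length can be compared. Depths, counted gene lengths and read numbers were inferred from the RPKM values. Depth was 24.4 to 37.4 M reads per library (1 M is 1e6). Counted gene lengths of the members were 273 to 1271 bases (median 637), some of them coding sequence only. The labels do not say that libraries of a group came from separate cultures, so p-values measure the spread between these libraries, which may be technical. The test was limma on log2(RPKM + 1) over the 19155 genes that reached 1 RPKM in 3 libraries, and a gene was called at a Benjamini-Hochberg adjusted p under 0.05. Log2 differences on this scale understate the change of genes near 1 RPKM, so the ratio of mean RPKM is also given for some of them.

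Of the 60 members, 49 passed this filter and 11 did not. SAUR11, SAUR13 and SAUR39 were listed at 0 in every library. SAUR2, SAUR25, SAUR40, SAUR61, SAUR70 and AT1G29490 stayed under 1 RPKM in every library, with highest values of 0.653, 0.220, 0.123, 0.674, 0.617 and 0.566 RPKM in that order. SAUR23 and SAUR28 reached at most 1.31 and 1.03 RPKM, both in solvent at 0 h. SAUR19 passed only through its 3 solvent 0 h libraries, so its differences from that group are partly set by the filter. Averaged over the 15 libraries, 17 members had 10 RPKM or more, 29 had 1 to 10 RPKM and 14 had less than 1 RPKM.

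The summed level of the 60 members was dominated by those outside the clusters. SAUR78 (AT1G72430), which together with SAUR76 (AT5G20820) and SAUR77 (AT1G17345) has been linked to ethylene-dependent growth, averaged 105 RPKM over the 15 libraries and made up 22.02% of the summed level. SAUR32, known for its effect on the apical hook, followed with 29.9 RPKM, and SAUR6 with 29.1 RPKM. In the clusters the highest were SAUR14 with 26.4 RPKM and SAUR50 with 20.2 RPKM, both known as light-induced in cotyledons, and SAUR62 with 5.90, SAUR29 with 4.57 and SAUR24 with 3.68 RPKM led the chromosome 1, 3 and 5 clusters.

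After 2 h of GR244DO, the tested SAUR genes of the tandem clusters had estimates below their solvent level, some by very little, whereas members outside them were spread on both sides. Of the 49 members tested, 5 were called lower and 0 higher (limma, adjusted p under 0.05), where 1.3% of all genes were called, 0.412% lower and 0.887% higher. At an unadjusted p under 0.05 there were 25 lower and 1 higher, SAUR33 (AT3G61900) outside the clusters. Of all 19155 genes, 18.3% passed, 992 of them lower and 2518 higher. The median log2 difference of the members was -0.23, against 0.06 over all genes. All 23 tested cluster members had a log2 difference below 0, with a median of -0.40, and 16 of the 26 other members did, with a median of -0.03. Of all 19155 genes tested, 6672 were below 0. Of the 23 cluster members 4 were called, and the difference nearest 0 was -0.02. Some copies share sequence, so the 23 are not independent readings. The libraries of the 2 groups did not overlap for 21 of 49 members, all of them lower with GR244DO, of which 17 were in clusters. Of all genes tested, 6.89% were lower without overlap and 19.3% were higher without overlap.

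**Figure D2:**
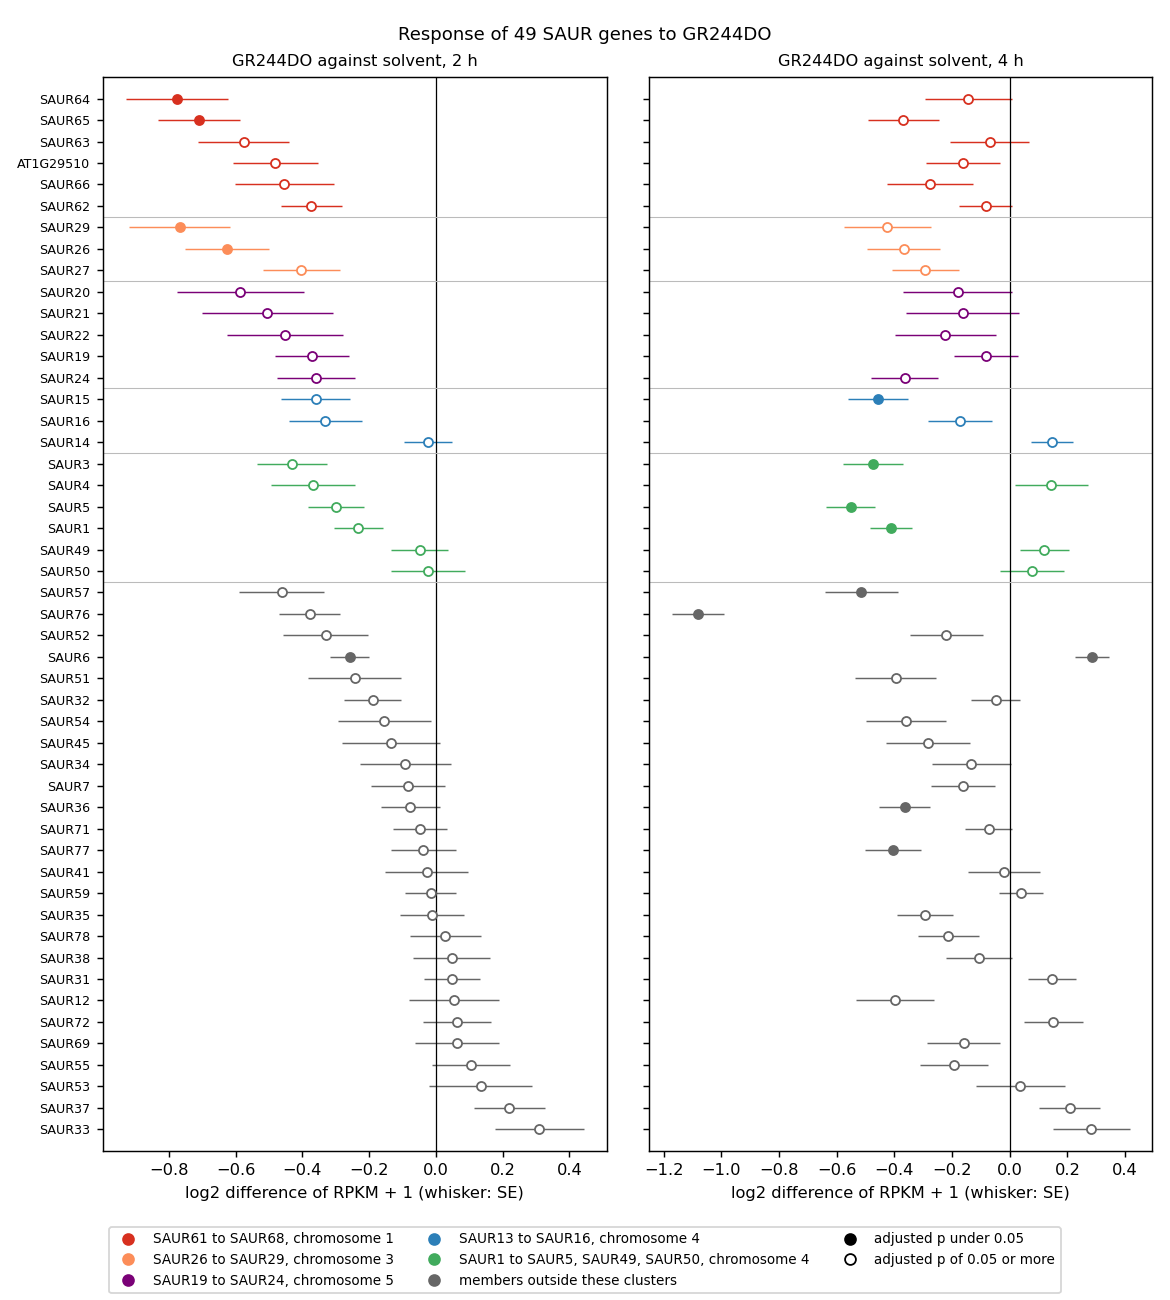
Log2 difference of RPKM + 1 between GR244DO and solvent at 2 h (left) and 4 h (right) for the 49 SAUR genes tested, 1 row per gene, grouped and coloured by cluster. Points are limma estimates with their SE, filled where the adjusted p was under 0.05; at 2 h all 23 cluster members lie left of 0, and at 4 h 19 of them do.

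The chromosome 1 and chromosome 3 clusters held 4 of the 5 genes called. SAUR65 had 0.569, 0.783 and 0.750 RPKM in the GR244DO libraries at 2 h, against 1.83, 2.05 and 1.48 RPKM in the solvent libraries at 2 h, with no overlap. These values rest on 9 to 13 reads with GR244DO and 27 to 49 with solvent. The mean with GR244DO was 0.392 of the solvent mean, and the log2 difference was -0.71 (SE 0.12, limma adjusted p = 0.00744), a call that held in all 23 alternatives that tested the gene. SAUR64, its neighbour, had 1.17, 1.26 and 1.81 RPKM with GR244DO, against 3.37, 3.26 and 2.73 RPKM with solvent. The groups were again apart, the ratio of means was 0.453, and the log2 difference was -0.78 (SE 0.15, limma adjusted p = 0.0179).

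In the chromosome 3 cluster, SAUR29 had 3.46, 2.24 and 2.74 RPKM with GR244DO, against 7.33, 4.77 and 4.55 RPKM with solvent at 2 h. Its solvent replicate 1 stood well above the other two, but every solvent library was above every GR244DO library. The log2 difference was -0.77 (SE 0.15, limma adjusted p = 0.0179). SAUR26 had 0.511, 0.912 and 0.757 RPKM with GR244DO, against 1.85, 1.52 and 1.60 RPKM with solvent, or 8 to 15 reads against 29 to 36. Its log2 difference was -0.63 (SE 0.13, limma adjusted p = 0.0204) and the ratio of means 0.438. SAUR27 had a ratio of means of 0.543 and did not pass the test (limma adjusted p = 0.102), although its groups did not overlap.

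The call of SAUR64 ended without GR244DO replicate 1 or 2 or without solvent replicate 1 or 2 at 2 h, with limma adjusted p of 0.0517 to 0.0988. That of SAUR26 ended without GR244DO replicate 1 or 3 or any one solvent replicate at 2 h, with adjusted p up to 0.0990, and that of SAUR29 without GR244DO replicate 2 or 3 or solvent replicate 1, with adjusted p up to 0.112. The remaining 4 tested genes of the chromosome 1 cluster, SAUR62, SAUR63, SAUR66 and AT1G29510, had log2 differences of -0.37, -0.58, -0.45 and -0.48 without overlap between groups and missed the threshold, with adjusted p of 0.0595, 0.0516, 0.149 and 0.0803. With the replicate number as a block these 4 genes and SAUR27 were called lower, with limma adjusted p up to 0.0467. Deviations from the group mean of same-numbered libraries in these 2 groups correlated only weakly (r of 0.101 to 0.179). The labels state no pairing, so the block is an alternative and not the main result.

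In summed RPKM, the chromosome 1 cluster stood at 13.2, 11.7 and 14.3 in the GR244DO libraries at 2 h, against 21.8, 21.1 and 22.1 in the solvent libraries at 2 h. The chromosome 3 cluster summed to 4.98, 4.24 and 4.76 RPKM with GR244DO, against 11.4, 8.02 and 7.82 RPKM with solvent. The chromosome 5 cluster summed to 6.80, 8.40 and 7.58 RPKM with GR244DO, against 12.2, 10.9 and 13.8 RPKM with solvent. In these 3 clusters every GR244DO library was below every solvent library of the same time. Of the 5 tested genes of the chromosome 5 cluster, none was called at 2 h (limma), while all 5 had an unadjusted p under 0.05 and log2 differences of -0.36 to -0.59. Ratios of means were 0.464 for SAUR19, 0.550 for SAUR20, 0.590 for SAUR21, 0.517 for SAUR22 and 0.725 for SAUR24. That of SAUR19 rests on 2 to 6 reads with GR244DO and 10 to 13 with solvent. SAUR20, for example, averaged 1.54 ± 0.440 RPKM with GR244DO and 2.80 ± 0.518 RPKM with solvent (SD, n = 3 each), and was called with the replicate block (limma adjusted p = 0.0160).

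The first chromosome 4 cluster summed to 57.9, 56.4 and 59.9 RPKM with GR244DO, against 63.7, 66.8 and 70.3 RPKM with solvent. The second summed to 39.2, 40.5 and 43.4 RPKM with GR244DO, against 41.9, 48.5 and 49.3 RPKM with solvent, and here the groups overlapped. Of the 9 tested genes of the 2 chromosome 4 clusters 0 were called (limma), and 6 had an unadjusted p under 0.05. With the replicate number as a block 3 of them were called lower, SAUR3, SAUR5 and SAUR16, with limma adjusted p of 0.0217, 0.0208 and 0.0364. SAUR50 and SAUR14, their highest members, had log2 differences of -0.02 each. Members outside the clusters summed to 290, 289 and 301 RPKM with GR244DO, against 286, 306 and 319 RPKM with solvent.

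**Figure D3:**
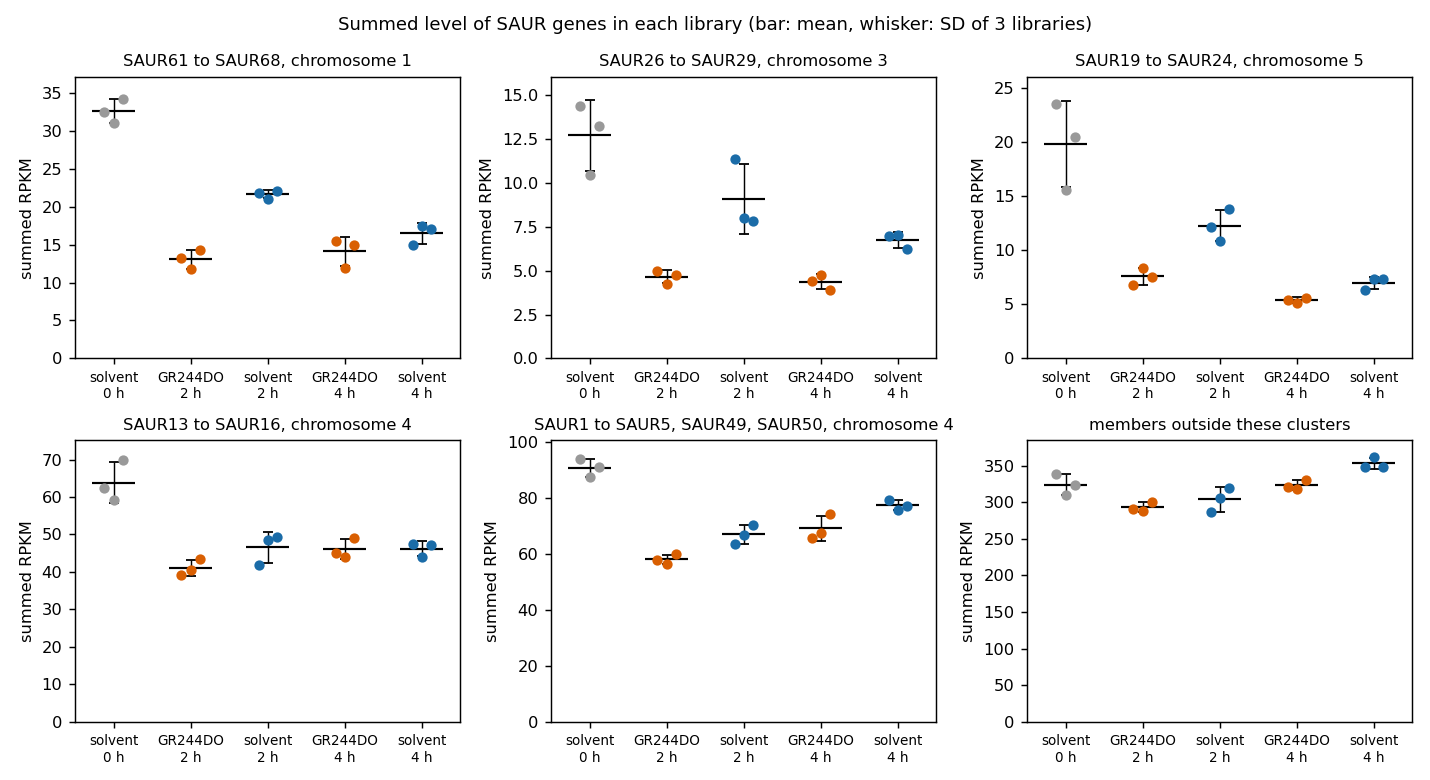
Summed RPKM of the members of each cluster and of the members outside them, 1 point per library, with the mean and SD of the 3 libraries of each group. At 2 h the GR244DO points of the chromosome 1, 3 and 5 clusters all lie below the solvent points, and in solvent these 3 clusters decline from 0 h to 4 h.

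SAUR6, which lies close to SAUR7 and SAUR12, was the one member outside the 5 clusters called at 2 h. It had 19.9, 19.4 and 18.8 RPKM with GR244DO, against 24.5, 22.4 and 23.3 RPKM with solvent. The difference was small, -0.26 on the log2 scale (SE 0.06, limma adjusted p = 0.0373), and the call ended in 13 of 24 alternatives, with adjusted p up to 0.173. Of the tested members, 20 held CACATG in the promoter and 29 did not. All 5 members called lower at 2 h held it, but of the 16 called with the replicate block 12 held it and 4 did not. Of those called lower at 4 h, 4 held it and 4 did not. In solvent, 14 with it and 11 without were called lower at 2 h against 0 h, and 5 with it and 2 without at 4 h against 2 h.

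The count of 5 at 2 h depended on single libraries and on the fit. It was 2 without GR244DO replicate 2, 3 without GR244DO replicate 3, and 1, 2 and 3 without solvent replicates 1, 2 and 3. With the replicate number as a block 16 members were called, all lower, and 5.35% of all genes were called in that fit. Of the 16, 13 lay in clusters and 3 outside them, SAUR6, SAUR57 and SAUR76. Of 5 photosynthetic shoot genes and 5 root genes read as markers, 0 were called at 2 h (limma, unblocked). The shoot genes summed to 13363 to 14038 RPKM with GR244DO, against 14627 to 15211 RPKM with solvent, mostly RBCS1A with means of 10432 RPKM with GR244DO and 11357 RPKM with solvent. The root genes summed to 1299 to 1313 RPKM with GR244DO, against 1156 to 1206 RPKM with solvent. PYK10 made up most of that sum, with means of 1228 RPKM with GR244DO and 1105 RPKM with solvent. TIP2;3 had 12.01 RPKM with GR244DO and 12.9 RPKM with solvent. At 2 h both sums lay apart between the groups. Log2 differences of the root genes were 0.13 for CASP1, 0.19 for SHV2, 0.17 for EXPA7, 0.15 for PYK10 and -0.09 for TIP2;3. Those of the shoot genes ranged from -0.20 to -0.04. All 5 genes of each list were above 0 in every library, and their part in the result was not tested. In whole seedlings, fewer cells of a type and less RNA per cell cannot be told apart.

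After 4 h of GR244DO, of 49 members, 8 were called lower and 1 higher, where 8.93% of all genes were called, 4.23% lower and 4.69% higher. The lower ones were SAUR76, SAUR57 (AT3G53250), SAUR36 (AT2G45210) and SAUR77 outside the clusters and SAUR1, SAUR3, SAUR5 and SAUR15 in the chromosome 4 clusters. The median log2 difference was -0.17, against 0.02 over all genes. Groups did not overlap for 18 members that were lower and 4 that were higher with GR244DO, while over all genes these shares were 16% and 17.5%. SAUR6 was called at both times and 13 members at either time. With the replicate block 6 members were called at both times, namely SAUR3, SAUR5, SAUR6, SAUR29, SAUR57 and SAUR76. No share over all genes is given for calls at both or either time, so these counts cannot be read as particular to SAUR genes. The block fits the same replicate effect in all groups, although same-numbered libraries at 4 h did not all deviate together. Its calls at 4 h are therefore an alternative only.

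SAUR76 had the largest difference among the members tested. It had 7.22, 7.06 and 7.25 RPKM in the GR244DO libraries at 4 h, against 15.2, 17.4 and 16.3 RPKM in the solvent libraries at 4 h. The GR244DO libraries lay close to each other and far below the solvent ones. The log2 difference was -1.08 (SE 0.09, limma adjusted p = 1.55e-06), and the ratio of means was 0.440. At 2 h the same gene had 9.23, 8.85 and 8.63 RPKM with GR244DO, against 12.2, 12.03 and 11.4 RPKM with solvent, a log2 difference of -0.38 that missed the threshold (limma adjusted p = 0.0533; 0.0245 with the replicate block). The response at 4 h minus that at 2 h was -0.70 (SE 0.13, limma adjusted p = 0.00810). Its relative SAUR77 averaged 2.39 ± 0.263 RPKM with GR244DO and 3.49 ± 0.219 RPKM with solvent at 4 h (SD, n = 3 each), a log2 difference of -0.40 (SE 0.10, limma adjusted p = 0.0149). SAUR78, the most abundant member, had a log2 difference of -0.21 at 4 h (limma adjusted p = 0.236) and of 0.03 at 2 h.

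SAUR6 went the other way at 4 h. It had 37.4, 40.01 and 39.5 RPKM with GR244DO, against 31.7, 31.9 and 31.9 RPKM with solvent. The groups did not overlap and the log2 difference was 0.29 (SE 0.06, limma adjusted p = 0.00489). The response at 4 h minus that at 2 h was 0.54 (SE 0.08, limma adjusted p = 0.00234). Both differences between the times were no longer called with close replicate pairs averaged, at adjusted p of 0.0567 for SAUR6 and 0.116 for SAUR76. Of 49 members, SAUR6 and SAUR76 were the 2 whose response changed between the times by this test, where 1.72% of all genes were called, 0.961% higher and 0.757% lower. At an unadjusted p under 0.05 there were 9 members, where 11.1% of all genes passed. Of the 23 tested cluster members, 0 were called for such a change (limma, 4 at an unadjusted p under 0.05), so the smaller differences of the chromosome 1 cluster at 4 h were not shown to differ from those at 2 h.

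**Figure D4:**
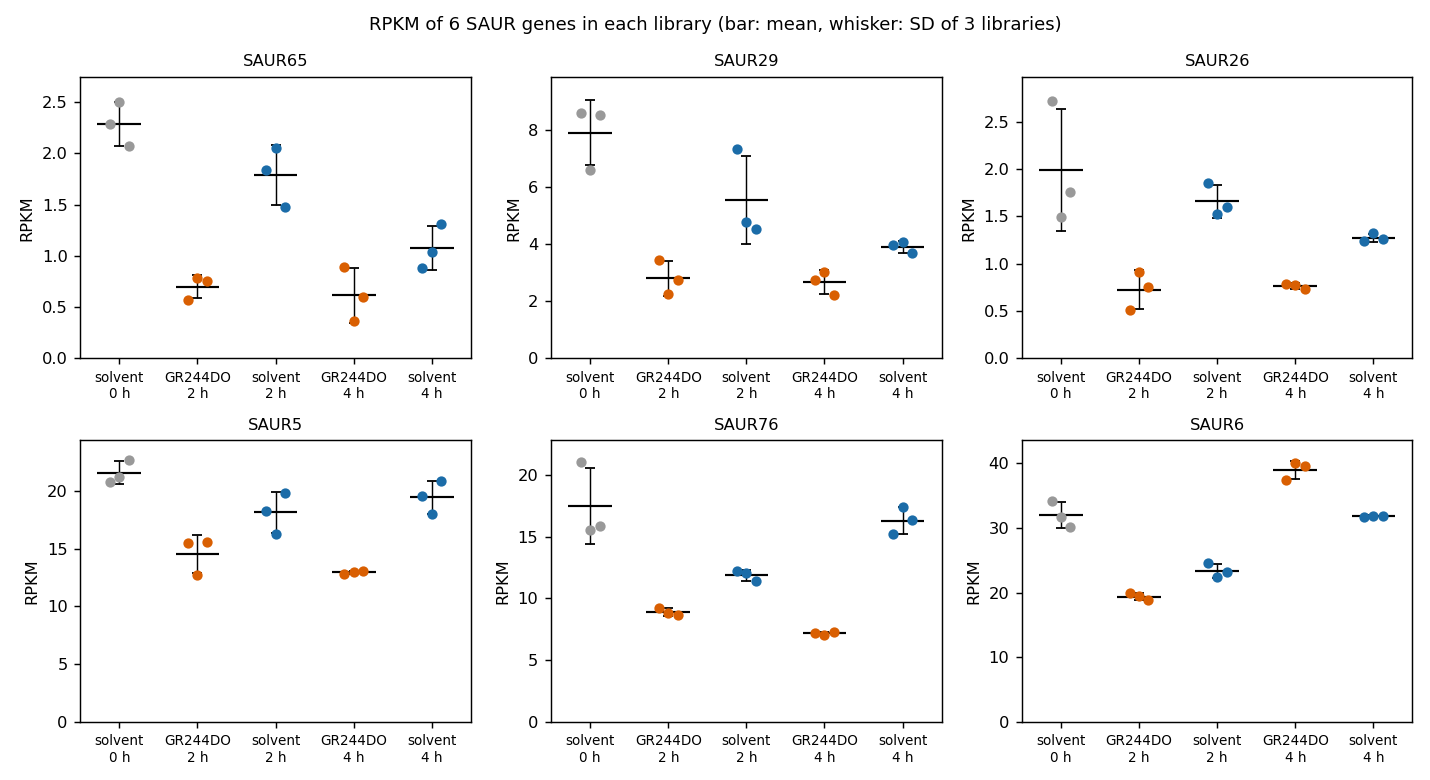
RPKM of 6 SAUR genes in each library, with the mean and SD of the 3 libraries of each group. SAUR65, SAUR29 and SAUR26 are lower with GR244DO at 2 h, SAUR5 and SAUR76 are lower with GR244DO at 4 h, and SAUR6 is lower at 2 h but higher at 4 h.

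In the first chromosome 4 cluster, neighbouring genes stood on both sides of the threshold at 4 h. SAUR5 had 12.8, 13.0 and 13.0 RPKM with GR244DO, against 19.5, 17.9 and 20.8 RPKM with solvent. All GR244DO libraries lay below all solvent libraries, and the log2 difference was -0.55 (SE 0.08, limma adjusted p = 0.000522). SAUR1 had 8.06, 8.54 and 8.73 RPKM with GR244DO, against 11.5, 12.4 and 10.9 RPKM with solvent, a log2 difference of -0.41 (SE 0.07, limma adjusted p = 0.00178). SAUR3 had 3.49, 3.40 and 3.40 RPKM with GR244DO, against 5.13, 5.59 and 4.75 RPKM with solvent, a log2 difference of -0.47 (SE 0.10, limma adjusted p = 0.00878). These 3 genes were called lower, whereas SAUR4, SAUR49 and SAUR50 between and beside them had log2 differences of 0.14, 0.12 and 0.08 and did not pass the test.

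Among the other genes called lower at 4 h, SAUR15 averaged 2.41 ± 0.162 RPKM with GR244DO and 3.69 ± 0.433 RPKM with solvent (SD, n = 3 each), a log2 difference of -0.46 (limma adjusted p = 0.0103). SAUR57 averaged 6.90 ± 0.253 RPKM with GR244DO and 10.3 ± 0.477 RPKM with solvent, a log2 difference of -0.51 (limma adjusted p = 0.0172). SAUR36, which promotes leaf senescence, averaged 7.85 ± 0.259 RPKM with GR244DO and 10.4 ± 1.12 RPKM with solvent, a log2 difference of -0.36 (limma adjusted p = 0.0165). These calls and that of SAUR77 ended without solvent replicate 3 at 4 h, with adjusted p of 0.0622 for SAUR15, 0.0702 for SAUR57, 0.104 for SAUR36 and 0.0526 for SAUR77. They also ended without GR244DO replicate 1 at 4 h, those of SAUR36 and SAUR77 without GR244DO replicate 2, and that of SAUR77 without solvent replicate 2. Without solvent replicate 3 at 4 h the count of members called was 5 instead of 9, 1 higher and 4 lower. SAUR1, SAUR5 and SAUR76 kept their calls in all 24 alternatives.

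No gene of the chromosome 1, 3 or 5 clusters was called at 4 h (limma). At an unadjusted p under 0.05 there were 5 of 14, all lower, where 24.1% of all genes passed, 2086 of 19155 of them lower. The chromosome 1 cluster summed to 15.5, 11.9 and 14.99 RPKM with GR244DO, against 14.9, 17.5 and 17.1 RPKM with solvent, and the groups overlapped. The chromosome 3 cluster still lay apart, at 4.42, 4.76 and 3.92 RPKM with GR244DO, against 6.98, 7.05 and 6.23 RPKM with solvent. The chromosome 5 cluster summed to 5.43, 5.12 and 5.63 RPKM with GR244DO, against 6.32, 7.32 and 7.34 RPKM with solvent. Shoot markers summed to 11901 to 13422 RPKM with GR244DO, against 10663 to 12156 RPKM with solvent, and root markers to 1336 to 1467 RPKM with GR244DO, against 1323 to 1407 RPKM with solvent. These sums, again mostly RBCS1A and PYK10, overlapped between the groups, and 1 shoot gene was called higher and 0 root genes were called (limma). The shoot gene was CA1, a carbonic anhydrase, with 578, 563 and 616 RPKM with GR244DO, against 487, 433 and 478 RPKM with solvent, a log2 difference of 0.33 (limma adjusted p = 0.0205).

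The partners of SAUR proteins and other auxin genes were read from lists of known members. These lists were chosen with earlier results of these data known, so their counts are descriptions and no independent test. Shares over all genes were 0.412% called lower and 0.887% called higher at 2 h, and 4.23% and 4.69% at 4 h. Of 9 PP2C.D phosphatase genes, 1 was called lower at each time, AT5G02760 (APD7), with 23.5 ± 1.22 RPKM with GR244DO and 38.9 ± 2.45 RPKM with solvent at 2 h and 17.8 ± 1.10 RPKM with GR244DO and 34.8 ± 0.891 RPKM with solvent at 4 h (SD, n = 3 each). Its log2 differences were -0.70 and -0.93 (limma adjusted p of 0.000148 and 5.32e-07). Of 11 AHA proton pump genes 8 were tested, and AHA7 was called higher at 2 h, with 6.32 ± 0.349 RPKM with GR244DO and 4.28 ± 0.0889 RPKM with solvent (log2 difference 0.47, limma adjusted p = 0.00439). None of the 8 was called at 4 h.

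Of 11 auxin receptor and activating ARF genes, 0 were called at either time (limma). Of 6 PIF and BZR growth factors, PIF3 was called lower at 4 h, with 9.95 ± 0.697 RPKM with GR244DO and 15.2 ± 0.519 RPKM with solvent (SD, n = 3 each), a log2 difference of -0.57. Of 14 early auxin-induced Aux/IAA and GH3 genes, a list also chosen with earlier results known, 13 were tested. At 2 h 1 was called lower, IAA29, and 1 higher, DFL1 (GH3.6), which encodes an enzyme that conjugates auxin to amino acids. At 4 h 6 of 13 were called lower, against 4.23% of all genes, with log2 differences of -0.93 for IAA19 and -0.79 for IAA5, both Aux/IAA repressors, and 1 higher, again DFL1 with 0.52. The median over the 13 was -0.15 at 2 h and -0.27 at 4 h, against 0.06 and 0.02 over all genes.

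In solvent alone, most of the tested cluster members fell within 2 h. At 2 h against 0 h, 25 of 49 members were called lower and 1 higher, where 28.7% of all genes were called, 9.66% lower and 19% higher. At an unadjusted p under 0.05 there were 33 members, where 39.4% of all genes passed. The median log2 difference was -0.35, against 0.07 over all genes. All 23 tested cluster members had a difference below 0 and 15 of them were called lower, along with 10 of 26 members outside. These counts include SAUR19, which passed the filter only through solvent at 0 h, so that its fall was partly set by the filter. Solvent at 2 h serves both as control of the 2 h response to GR244DO and as the later point here, so the 2 sets of values are given side by side and not compared. The count was 15 without solvent 0 h replicate 1 and 16 without solvent 2 h replicate 2, all of them lower.

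SAUR12 (AT2G21220) had 1.40, 2.19 and 1.93 RPKM in solvent at 2 h, against 4.67, 3.77 and 4.60 RPKM at 0 h, a log2 difference of -0.92 (SE 0.13, limma adjusted p = 8.92e-05). SAUR1 had 9.40, 10.2 and 10.8 RPKM at 2 h, against 20.8, 18.0 and 20.02 RPKM at 0 h, a log2 difference of -0.89 (SE 0.07, limma adjusted p = 1.95e-07). In both genes the groups were far apart. SAUR3, SAUR16 and SAUR15 of the chromosome 4 clusters had log2 differences of -0.75, -0.72 and -0.68 (limma adjusted p of 5.47e-05, 0.000126 and 0.000116), and SAUR24 of the chromosome 5 cluster also -0.68. SAUR31 (AT4G00880) was the member called higher, at 13.6 ± 1.06 RPKM at 2 h and 11.3 ± 1.04 RPKM at 0 h (SD, n = 3 each), with a log2 difference of 0.25 (limma adjusted p = 0.0341). That call ended under 8 alternatives, and SAUR31 overlaps AT4G00883 on the opposite strand.

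**Figure D5:**
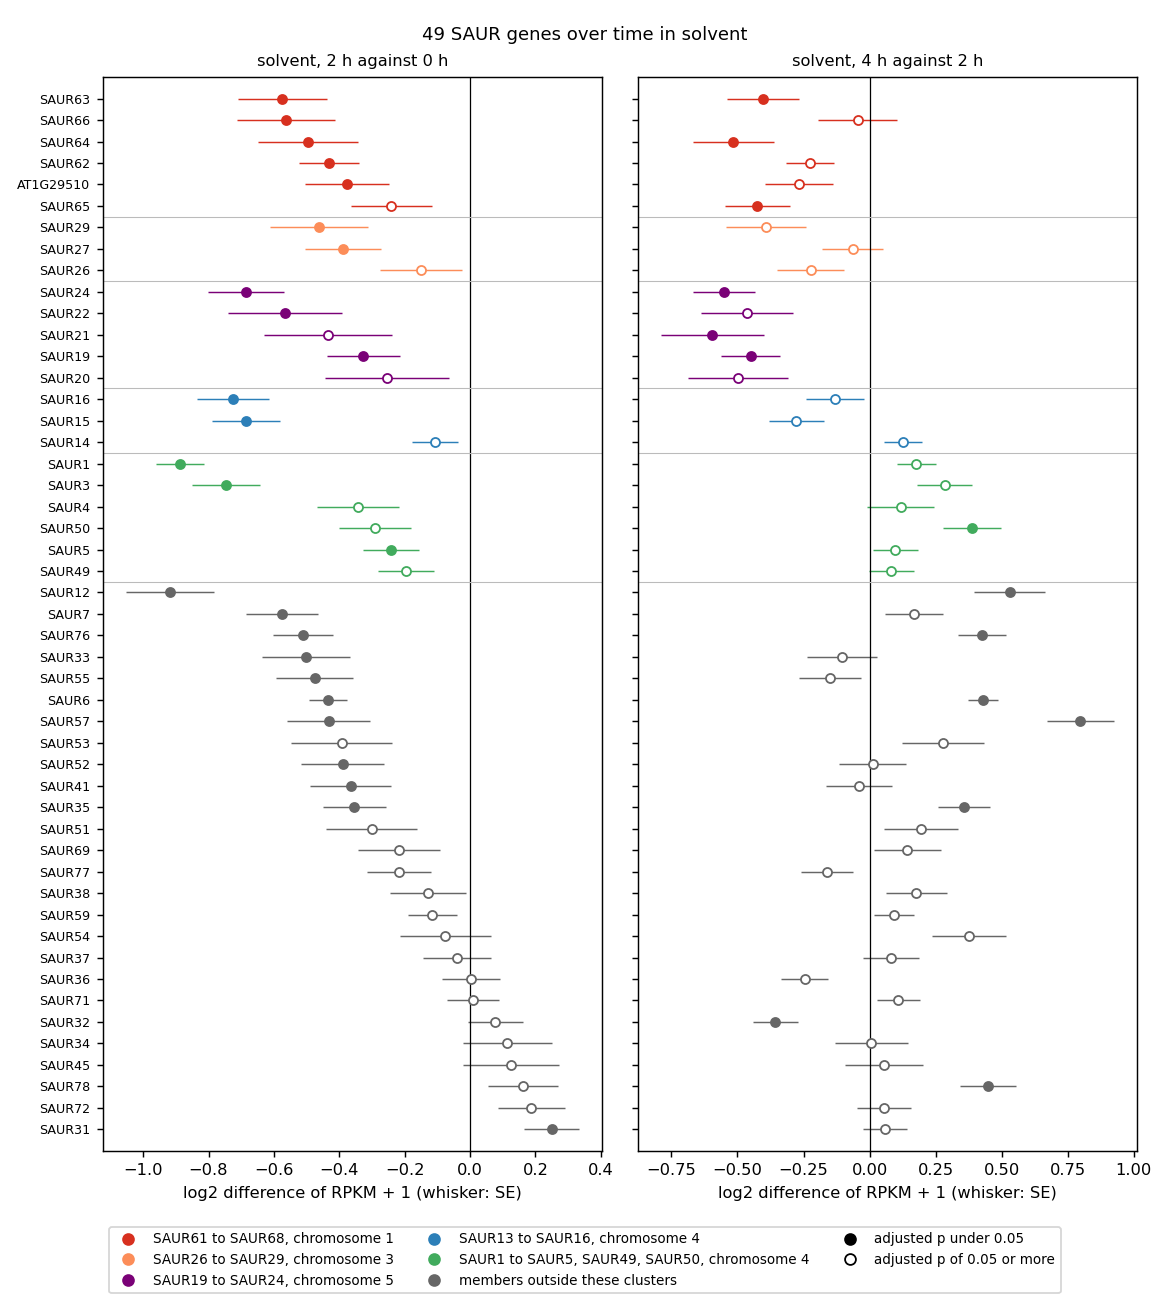
Log2 difference of RPKM + 1 in solvent between 2 h and 0 h (left) and between 4 h and 2 h (right) for the 49 SAUR genes tested, 1 row per gene, grouped and coloured by cluster. Points are limma estimates with their SE, filled where the adjusted p was under 0.05; from 0 h to 2 h 25 genes were called lower, and from 2 h to 4 h 7 were called lower and 7 higher.

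From 2 h to 4 h in solvent, genes of the chromosome 1 and 5 clusters fell while several members outside the clusters rose. Of 49 members, 7 were called lower and 7 higher at 4 h against 2 h, where 21.3% of all genes were called, 9.5% lower and 11.8% higher. At an unadjusted p under 0.05 there were 23 members, where 34.3% of all genes passed. With quantile normalization the split was 5 lower and 8 higher. Of the genes called lower, 6 were in the chromosome 1 and 5 clusters, namely SAUR63, SAUR64, SAUR65, SAUR19, SAUR21 and SAUR24, and the other was SAUR32. The call of SAUR63 ended in 15 of 24 alternatives, with adjusted p up to 0.218. Of the genes called higher, 6 lay outside the clusters, SAUR6, SAUR12, SAUR35, SAUR57, SAUR76 and SAUR78, and the other was SAUR50. The counts were 9 without solvent 2 h replicate 1 and 7 without solvent 4 h replicate 1, and the calls of SAUR12, SAUR21, SAUR35, SAUR50, SAUR63, SAUR64 and SAUR65 ended when either library was left out.

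SAUR57 had 9.74, 10.5 and 10.6 RPKM in solvent at 4 h, against 6.22, 5.83 and 4.54 RPKM at 2 h, a log2 difference of 0.80 (SE 0.13, limma adjusted p = 0.000324). SAUR78 had 134, 136 and 125 RPKM at 4 h, against 77.7, 103 and 111 RPKM at 2 h, a log2 difference of 0.45 (SE 0.11, limma adjusted p = 0.00688). Both were without overlap, though solvent 2 h replicate 1 lay well below the other libraries for SAUR78. SAUR21 and SAUR24 had log2 differences of -0.59 and -0.55 (limma adjusted p of 0.0410 and 0.00301), and the call of SAUR21 ended under 12 alternatives. SAUR19 had 0.220, 0.410 and 0.156 RPKM at 4 h, against 0.791, 0.682 and 0.685 RPKM at 2 h, or 2 to 6 reads against 10 to 13. Its ratio of means was 0.364.

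Over the 3 times in solvent, the chromosome 1 cluster summed to 32.6 ± 1.57 RPKM at 0 h, 21.6 ± 0.528 RPKM at 2 h and 16.5 ± 1.40 RPKM at 4 h (SD, n = 3 each). The chromosome 3 cluster summed to 12.7 ± 2.02, 9.07 ± 1.99 and 6.75 ± 0.452 RPKM, and the chromosome 5 cluster to 19.9 ± 4.02, 12.3 ± 1.48 and 6.99 ± 0.584 RPKM, at the same times. The first chromosome 4 cluster stood at 90.7 ± 3.23 RPKM at 0 h, 67.0 ± 3.31 RPKM at 2 h and 77.4 ± 1.78 RPKM at 4 h, lowest at 2 h. The second stood at 63.9 ± 5.49, 46.5 ± 4.04 and 46.2 ± 2.00 RPKM. Shoot markers also fell over this time, 5 of 5 called lower at 2 h against 0 h and 4 of 5 at 4 h against 2 h (limma). LHCB3 averaged 1985 RPKM at 0 h, 752 RPKM at 2 h and 259 RPKM at 4 h, and LHCA1 2107, 870 and 326 RPKM at the same times. RBCS1A, the most abundant, averaged 15080, 11357 and 9805 RPKM, and the summed markers ranged from 20862 to 24486, 14627 to 15211 and 10663 to 12156 RPKM. Of the 5 root markers 2 were called lower at 2 h, CASP1 and EXPA7 with log2 differences of -0.48 and -0.31, and 3 were called higher at 4 h against 2 h, SHV2, EXPA7 and PYK10 with 0.31, 0.32 and 0.21. Root marker sums were 1126 to 1285, 1156 to 1206 and 1323 to 1407 RPKM. Their part in the changes of SAUR levels was not tested. In this design time in solvent cannot be told apart from time of day or from time since the move to liquid medium.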

How the data were processed

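The authors deposited 1 table of RPKM values for 15 RNA-seq libraries of whole seedlings, made from reads mapped with STAR to TAIR10 and counted with featureCounts, per the submitters' processing notes. The sources used here give no tool versions, strand or handling of multi-mapping reads. The table listed 32678 genes by name, and 1 unnamed entry was left out. Gene lengths and library totals were not read from the table but searched for, so that RPKM times both gave whole reads. This held for 347820 of 347846 values above 0 (within 0.02 reads). That share follows from the search and is no separate check of it. Of the lengths found that could be compared, 17.5% equalled the reference length. The depths found were 24.4 to 37.4 M reads (1 M is 1e6). That number limits the precision of low genes, for counting error only.

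The plan allowed for counts or RPKM. As the table held RPKM, limma 3.58.1 (R 4.3.3) was fitted to log2(RPKM + 1) of all 15 libraries by group, with a trend of variance with level and Benjamini-Hochberg adjustment over the 19155 genes with at least 1 RPKM in 3 libraries. The script was tested on simulated data. Recovered reads entered 1 alternative (limma-voom). Other alternatives changed the pseudocount, filter, scaling, libraries in the fit, block and single libraries. The members and gene lists were chosen with earlier results of these data known.

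Members called for GR244DO or its change, the highest member of each cluster, and the 5 highest and lowest called members over time in solvent were named. Other genes came from the lists, with at most 4 called genes a list. Residuals of same-numbered libraries at 2 h correlated weakly, with r of 0.179, 0.133 and 0.101. Libraries of different numbers gave r of -0.157 to 0.0432 there. At 4 h r of same-numbered libraries was -0.183, 0.491 and 0.407. In solvent at 2 h and 0 h it was 0.317, -0.0793 and 0.489, and in solvent at 4 h and 2 h -0.158, -0.106 and 0.165. As r was low or mixed and the labels state no pairing, the block was kept as an alternative only. It was fitted with the same effect in all groups.

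Recovered reads of 3 replicate pairs lay closer together than the rest. Their chi-square per degree of freedom was 1.12 for solvent 4 h replicates 1 and 3, 1.71 for solvent 2 h replicates 2 and 3 and 1.84 for GR244DO 4 h replicates 1 and 2, above sampling noise, so all were kept and averaged only in 1 alternative.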

Additional observations from a re-analysis of the deposited data

Results flagged for a closer look

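The response of SAUR6 to GR244DO differed between the times, by a test of the difference itself in limma. The log2 difference at 4 h minus that at 2 h was 0.54 (SE 0.08, adjusted p = 0.00234). All 3 GR244DO libraries lay below the solvent libraries at 2 h and all 3 lay above them at 4 h. The adjusted p ranged from 0.00135 to 0.0567 over 24 alternatives, the highest with close replicate pairs averaged. SAUR6 shares 176 bases with SAUR7 on the same strand, and SAUR7 averaged 1.25 RPKM against 29.1 RPKM for SAUR6.

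The response of SAUR76 also differed between the times by this test, with -0.70 for 4 h minus 2 h (SE 0.13, adjusted p = 0.00810). All 3 GR244DO libraries lay below the solvent libraries at both times. The adjusted p ranged from 0.000737 to 0.116 over 24 alternatives, the highest again with close pairs averaged.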

How the results depend on the processing

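No value that was called changed its sign under any alternative. For GR244DO at 2 h, 5 members were called, 1 to 7 when single libraries were left out, 3 of 28 tested with a filter of 5 RPKM, 9 with median-of-ratios scaling, 11 with quantile normalization, 3 with only the compared groups in the fit, 16 with the replicate block, 1 with close replicate pairs averaged and 3 with limma-voom on recovered reads. At 4 h the count of 9 became 5 to 11 without single libraries, 15 with only the compared groups and 3 with close pairs averaged, and 11 with the replicate block, 6 of them called at 2 h too in that fit. That block fits the same effect in all groups, and same-numbered libraries at 4 h did not all deviate together. The change of response was called for 2 members, for 2 without any single library, and for 0 (limma, 8 at an unadjusted p under 0.05) with close pairs averaged. In solvent at 2 h against 0 h the count of 26 became 15 to 27 without single libraries, 16 of 28 tested with the filter of 5 RPKM and 15 with close pairs averaged. In solvent at 4 h against 2 h the count of 14 became 7 to 17 without single libraries, 8 of 28 tested with that filter and 7 with close pairs averaged. The stricter filter tests fewer genes and averaging leaves fewer samples. The share of all genes called was also higher with the replicate block at 2 h, as given above, and is not listed here for each fit. A changed count can therefore not be read as particular to SAUR genes. What else moved the counts was not tested. With the pairs averaged, or with 1 library left out, a group holds 2 samples, and the shared spread is then assumed for it. Genes near 1 RPKM rest on about 10 to 50 reads a library, which limits the chromosome 1, 3 and 5 clusters most.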
